A study of Homo sapiens with 8 samples.

Results

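Matrix proteases and the proteins that hold them in check were followed as 9 genes across 8 RNA-seq libraries of MEL202 cells. They were 3 matrix metalloproteinases (MMP2, MMP14, MMP15), 3 tissue inhibitors of metalloproteinases (TIMP1, TIMP2, TIMP3), the plasminogen activators PLAT and PLAU, and the serpin SERPINE2. The genes were chosen by symbol, with earlier results of these data known, as 9 of 18904 named genes in the table. Each symbol was represented by its locus with the highest mean over the 8 libraries. All 9 had a locus, and 8 of them passed the filter of a mean of at least 1 and entered the tests; PLAU, with a mean of 0.228, did not.

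MEL202 is a human uveal melanoma cell line, and the study asked what the mutant and the wildtype allele of the splicing factor gene SF3B1 each do in it. Parental cells were the control. The knockout line had lost the mutant allele; the mutant degron line carried a destabilising domain (DD) on mutant SF3B1, and the wildtype degron line carried it on wildtype SF3B1. Each of the 4 lines was sampled with and without Shld, a small ligand that shields the domain from degradation, so that its withdrawal removes the tagged protein. The labels give 2 days for the 3 engineered lines and no time for parental cells. Column names in the deposited table differ from this: they place a DD on wildtype SF3B1 in the knockout line as well, and they give 4 days without Shld for the knockout line and for parental cells. What withdrawal removes in the knockout line is therefore uncertain.

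Each line and Shld state had 1 library, and the labels list each line as a clone, so the engineered allele and the history of that clone cannot be told apart. Separate cultures are not stated, so p-values measure only the spread between these libraries. In cultured cells measured in bulk, fewer expressing cells and less RNA per cell also cannot be told apart. Values are fragments per kilobase of transcript and unit of library size (FPKM), rescaled by the authors, and allow levels of different genes to be compared per length; absolute depth is unknown. Summed values ran from 762679 to 961994 per library, the highest being parental cells with Shld, where ribosomal protein transcripts also took their highest share, 21.0% against 11.8% to 18.9% in the others. SF3B1 transcript stood at 240 to 266 in the parental pair, 138 to 158 in the knockout pair, 248 to 252 in the mutant degron pair and 188 to 201 in the wildtype degron pair. These values do not separate the alleles. Of the 10 melanocyte lineage markers listed, 9 had a locus, and their summed level was 11918 to 12924 in parental cells, 6422 to 7177 in the knockout line, 7460 to 9049 in the mutant degron line and 14207 to 15441 in the wildtype degron line; its part in the differences below was not tested. Of the markers of other cell types, 5 of 5 epithelial and 4 of 5 endothelial ones were below 1 in every library. The 4 fibroblast markers with a locus summed to 1.64 to 29.9, nearly all of it LUM. Leukocyte markers summed to 645 to 834, nearly all of it CD68, with CD3E at 0.

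Matrix metalloproteinases are zinc enzymes, made as inactive precursors, that cut collagens and other matrix proteins. TIMPs bind their active site, and TIMP2 has a further role, since a complex of MMP14 and TIMP2 on the cell surface is the platform on which the MMP2 precursor is activated. In a parallel system, PLAT and PLAU cut plasminogen to plasmin, a broad protease that can also activate metalloproteinase precursors, and SERPINE2 (protease nexin-1) is an inhibitor of thrombin and of plasminogen activators. Invasion of uveal melanoma through the eye wall is among the settings in which these enzymes are studied.

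RefSeq promoter windows on GRCh38.p14 were found for 6 of the 9 genes, as 8 windows. Shown here are the 250 bases before the start of MMP14 and of TIMP3, which were both higher in all 3 engineered lines, of TIMP1, which was not higher in 2 of those lines, and of SERPINE2, whose window holds repeated motifs. Capitals mark matches on either strand to the 6 motifs searched. GGGCGG is the GC box and CCAAT the box of the same name. CATGTG is the core of the M-box bound by MITF-family factors. CACGTG is an E-box. TATAAA is the TATA box, and an AP-1 site was searched as TGANTCA. Each is written 5′ to 3′ on the strand of the gene.
MMP14: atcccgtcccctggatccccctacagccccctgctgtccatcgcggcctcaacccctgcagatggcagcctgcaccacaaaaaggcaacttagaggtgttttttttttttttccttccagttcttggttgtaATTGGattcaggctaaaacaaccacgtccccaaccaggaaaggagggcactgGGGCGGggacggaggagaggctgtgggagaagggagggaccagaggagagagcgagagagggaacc
TIMP3: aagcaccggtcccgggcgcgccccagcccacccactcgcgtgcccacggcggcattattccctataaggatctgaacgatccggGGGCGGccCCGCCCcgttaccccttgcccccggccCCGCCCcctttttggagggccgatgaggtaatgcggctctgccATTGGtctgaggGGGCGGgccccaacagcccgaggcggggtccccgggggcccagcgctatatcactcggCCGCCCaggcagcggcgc
TIMP1: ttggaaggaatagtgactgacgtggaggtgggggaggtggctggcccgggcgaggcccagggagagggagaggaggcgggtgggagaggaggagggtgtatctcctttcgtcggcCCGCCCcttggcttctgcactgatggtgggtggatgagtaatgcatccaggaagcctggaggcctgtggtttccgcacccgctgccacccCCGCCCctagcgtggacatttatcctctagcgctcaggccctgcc
SERPINE2: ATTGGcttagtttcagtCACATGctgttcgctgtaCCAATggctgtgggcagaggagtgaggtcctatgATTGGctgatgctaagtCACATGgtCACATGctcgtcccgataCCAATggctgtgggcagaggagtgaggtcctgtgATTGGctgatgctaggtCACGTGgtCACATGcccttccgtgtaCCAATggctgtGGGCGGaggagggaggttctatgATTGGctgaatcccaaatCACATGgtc
The MMP14 window lies at chr14:22836335-22836584 on the plus strand and holds 1 GC box and 1 CCAAT box. The TIMP3 window, chr22:32801455-32801704 (plus), holds 5 GC boxes and 1 CCAAT box, and the TIMP1 window, chrX:47582186-47582435 (plus), holds 2 GC boxes. The SERPINE2 window, chr2:224031479-224031728 (minus), holds 7 CCAAT boxes, 5 CATGTG, 1 CACGTG and 1 GC box. Among 35116 promoter windows of 250 bases, CATGTG was found in 9.42%, CACGTG in 6.34%, CCAAT in 32.0%, GGGCGG in 42.6%, TATAAA in 10.7% and TGANTCA in 6.57%. SERPINE2 has another promoter window with GC boxes alone, and the table does not show which start was used. A match is a description of letters, not of binding.

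The genes of this set differed widely in level, and the lines differed in 7 of the 8 tested. TIMP2 was the most abundant, with a mean over the 8 libraries of 989, followed by MMP14 (309), SERPINE2 (249), TIMP1 (156) and PLAT (131). TIMP3 (60.6), MMP15 (10.5) and MMP2 (1.88) were lower. A moderated F test over the 4 lines (limma on log2 of rescaled FPKM plus 1, Benjamini-Hochberg adjusted over 10526 genes) passed 0.05 for 7 of 8, the exception being TIMP1 (adjusted p = 0.050). In this design 67.7% of all genes tested passed, so a share of 7 in 8 is close to the background. The F test was clearest for MMP2 (adjusted p = 3.96e-05) and PLAT (adjusted p = 0.00045). MMP2 passed the filter only through its values in the knockout and mutant degron lines, the same values tested here. With Shld state as a covariate TIMP1 passed as well (adjusted p = 0.0078). It also passed when any of the parental or knockout libraries was left out (adjusted p from 0.013 to 0.035). TIMP2 did not pass without the wildtype degron library without Shld (adjusted p = 0.072), TIMP3 without the parental library with Shld (adjusted p = 0.062), and SERPINE2 without the mutant degron or wildtype degron library with Shld (adjusted p = 0.061 and 0.056). The libraries of a line with and without Shld supply the spread here, so a response to Shld makes the test stricter.

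**Figure D1:**
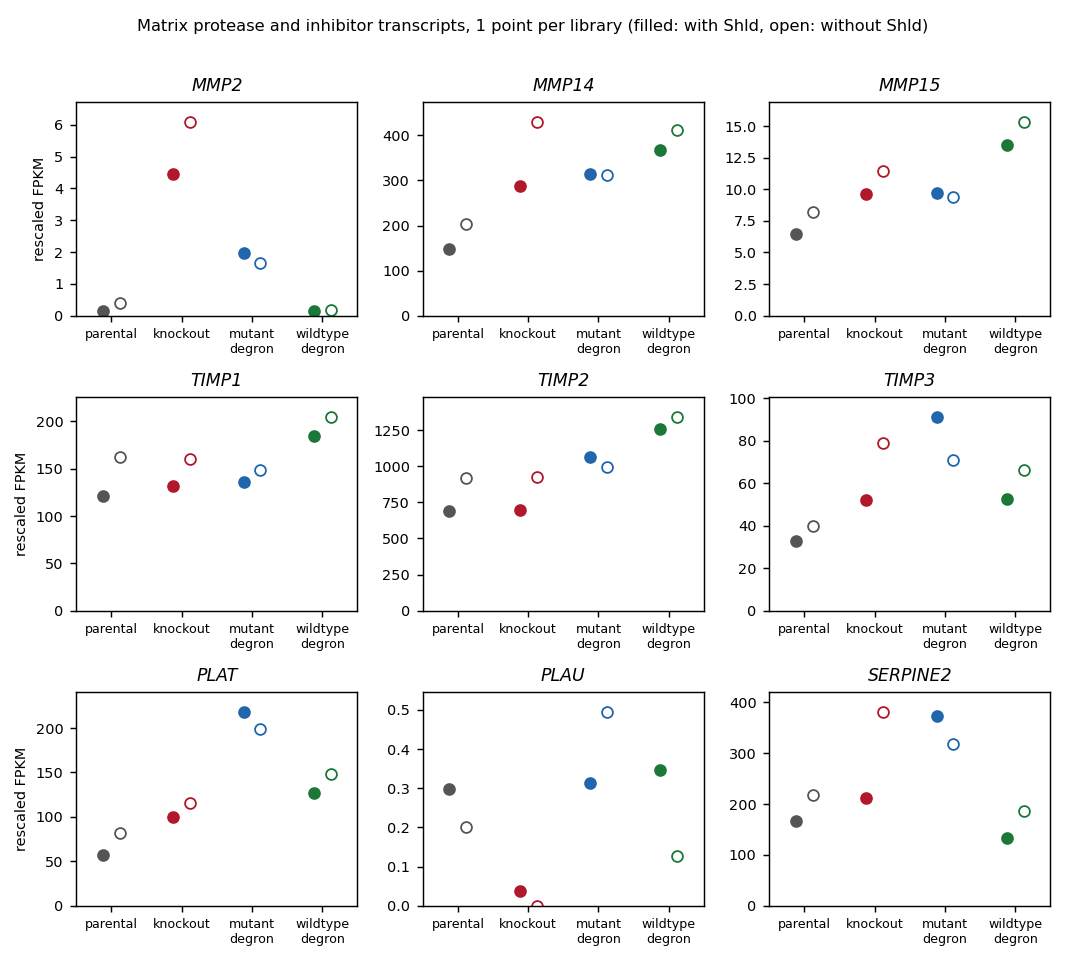
Rescaled FPKM of the 9 genes in each of the 8 libraries (linear axes from 0), 1 panel per gene, filled points with Shld and open points without. MMP2 reaches 4.46 and 6.10 in the knockout line and at most 0.403 in parental and wildtype degron cells, whereas TIMP2 stays between 693 and 1345 everywhere.

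Against parental cells, 5 of the 8 were higher and none lower in the knockout line, 5 higher and none lower in the mutant degron line, and 6 higher and none lower in the wildtype degron line. MMP2, which passed the filter only through its values in the knockout and mutant degron lines, is among the 5 in each. Over all genes tested, 17.9%, 11.5% and 21.0% were higher in the same comparisons, and 20.7%, 13.9% and 21.4% were lower. The median difference of the 8 was 0.62, 0.85 and 0.70 on the log2 scale, where the median over all genes was -0.03, -0.04 and 0.001. Because the set was chosen with earlier results of these data known, setting it beside all genes is a description only. MMP14, TIMP3 and PLAT were higher in all 3 engineered lines. Without the parental library with Shld, 2, 2 and 3 of the 8 were higher and none lower, and over all genes 1156, 530 and 1023 were higher in place of 1887, 1206 and 2212. The 3 comparisons share the parental libraries. They are therefore not independent of each other, and the parental library with Shld was the lowest of the 8 for MMP14, MMP15, TIMP1, TIMP2, TIMP3 and PLAT.

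**Figure D2:**
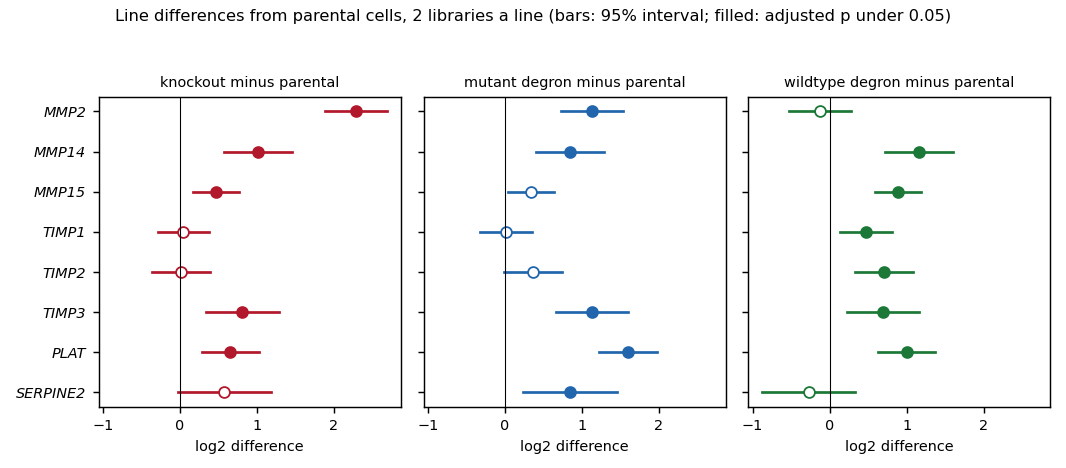
Difference of each engineered line from parental cells in log2(rescaled FPKM + 1), 2 libraries per line, with 95% intervals. Filled points passed 0.05 after adjustment, and MMP2 stands at 2.29, 1.14 and -0.13 from left to right.

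MMP2, gelatinase A, which cuts denatured collagen and basement membrane collagen IV, showed the largest difference between lines of the set on the log2(value + 1) scale. It was at 0.158 with and 0.403 without Shld in parental cells, 4.46 and 6.10 in the knockout line, 1.96 and 1.65 in the mutant degron line, and 0.150 and 0.179 in the wildtype degron line. The knockout and mutant degron pairs lay above the other 4 libraries with no overlap, and the knockout pair above the mutant degron pair. With a mean of 1.88, MMP2 passed the filter of 1 only through these pairs. The tests of these lines therefore rest on the values that admitted it. MMP2 was 2.29 ± 0.18 (SE) higher on the log2(value + 1) scale in the knockout line than in parental cells (limma, adjusted p = 3.0e-05) and 1.14 ± 0.18 higher in the mutant degron line (adjusted p = 0.0026). The wildtype degron line differed by -0.13, with a 95% interval of -0.53 to 0.27. The knockout line exceeded the mutant degron line by 1.15 (adjusted p = 0.0041). Because parental values are near 0, the size depends on the pseudocount: knockout less parental was 3.88 with 0.1 and 0.96 with 5, and mutant degron less parental 2.40 and 0.37, all of them called. With a pseudocount of 5 the PLAT difference between the mutant degron line and parental cells, 1.55, was larger than any of MMP2. Within Shld states the knockout to parental ratio was 28.2 with Shld and 15.2 without. Even at its highest MMP2 stayed far below MMP14.

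MMP14, the membrane-type enzyme MT1-MMP that activates the MMP2 precursor, was abundant in every library. Its values with and without Shld were 148 and 203 in parental cells, 287 and 431 in the knockout line, 314 and 312 in the mutant degron line, and 368 and 411 in the wildtype degron line. All 6 engineered libraries lay above both parental ones. The difference from parental cells was 1.02 ± 0.20 in the knockout line (limma, adjusted p = 0.0039), 0.85 ± 0.20 in the mutant degron line (adjusted p = 0.015) and 1.16 ± 0.20 in the wildtype degron line (adjusted p = 0.0026). No difference between engineered lines passed: knockout less mutant degron was 0.17 (95% interval -0.28 to 0.61), knockout less wildtype degron -0.14 (-0.59 to 0.30) and mutant less wildtype degron -0.31 (-0.76 to 0.13). The mutant degron call did not hold without the parental library with Shld (0.62, adjusted p = 0.10) or without either mutant degron library (adjusted p = 0.082 without the one with Shld and 0.071 without the other).

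MMP15, the membrane-type enzyme MT2-MMP, was higher in the wildtype degron line. It stood at 6.50 and 8.22 with and without Shld in parental cells, 9.63 and 11.4 in the knockout line, 9.69 and 9.37 in the mutant degron line, and 13.5 and 15.4 in the wildtype degron line. The wildtype degron pair lay above all other libraries. It was 0.89 ± 0.13 above parental cells (limma, adjusted p = 0.0019). Knockout less wildtype degron was -0.42 (adjusted p = 0.027), and mutant less wildtype degron was -0.55 (adjusted p = 0.0090). The knockout difference from parental cells, 0.47 ± 0.13 (adjusted p = 0.023), was lost without the parental library with Shld (0.32, adjusted p = 0.15) or the knockout library without Shld (0.35, adjusted p = 0.10). In the mutant degron line the difference was 0.34 (95% interval 0.04 to 0.64; adjusted p = 0.092).

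The inhibitors did not follow one pattern. TIMP1, a soluble inhibitor that acts weakly on membrane-type enzymes, stood at 122 and 163 with and without Shld in parental cells, 131 and 160 in the knockout line, 136 and 148 in the mutant degron line, and 185 and 205 in the wildtype degron line. The wildtype degron pair lay above the other 6 libraries, which overlapped each other. The difference from parental cells was 0.47 ± 0.15 in the wildtype degron line (limma, adjusted p = 0.033), 0.04 in the knockout line (95% interval -0.29 to 0.38) and 0.01 in the mutant degron line (-0.32 to 0.35). The wildtype degron call was lost when any of 5 libraries was left out, the parental one with Shld among them (0.26, adjusted p = 0.22), and the 4 others were the mutant degron and wildtype degron libraries (adjusted p from 0.050 to 0.16).

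TIMP2, the inhibitor that also forms the MMP14 activation complex, was the highest of the 9 in every library. It stood at 693 and 920 with and without Shld in parental cells, 700.2 and 929 in the knockout line, 1065 and 997 in the mutant degron line, and 1260 and 1345 in the wildtype degron line. The knockout value was 1.01 times the parental one in each Shld state, and the wildtype degron pair lay above the rest. The wildtype degron line was 0.70 ± 0.16 above parental cells (limma, adjusted p = 0.0094), and knockout less wildtype degron was -0.69 (adjusted p = 0.0080). Knockout less parental was 0.01 (95% interval -0.36 to 0.39). The first call was lost without the parental library with Shld (0.50, adjusted p = 0.063) or the wildtype degron library without it (0.66, adjusted p = 0.059), and the second without that same wildtype degron library (-0.64, adjusted p = 0.052).

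TIMP3, the only TIMP that binds tightly to matrix and an inhibitor of ADAM17 as well as of metalloproteinases, was higher in all 3 engineered lines. Its values with and without Shld were 32.9 and 39.7 in parental cells, 52.2 and 78.9 in the knockout line, 91.5 and 70.8 in the mutant degron line, and 52.5 and 66.5 in the wildtype degron line. No engineered library fell within the parental range. The differences from parental cells were 0.81 ± 0.21 (limma, adjusted p = 0.015), 1.13 ± 0.21 (adjusted p = 0.0056) and 0.69 ± 0.21 (adjusted p = 0.026). Without the parental library with Shld they were 0.68, 1.00 and 0.56, with adjusted p of 0.11, 0.053 and 0.17. Each was lost as well without 1 library of its own line: the knockout without Shld (0.52, adjusted p = 0.066), the mutant degron with Shld (0.95, adjusted p = 0.054) and the wildtype degron without Shld (0.53, adjusted p = 0.15).

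On the plasminogen side, PLAT, tissue plasminogen activator, was highest in the mutant degron line. It stood at 56.8 and 81.3 with and without Shld in parental cells, 99.5 and 116 in the knockout line, 219 and 199 in the mutant degron line, and 126 and 149 in the wildtype degron line. The 4 pairs did not overlap and ranked parental, knockout, wildtype degron, mutant degron. PLAT was 1.60 ± 0.16 above parental cells in the mutant degron line (limma, adjusted p = 0.00032), 1.00 ± 0.16 in the wildtype degron line (adjusted p = 0.0024) and 0.65 ± 0.16 in the knockout line (adjusted p = 0.014). Knockout less mutant degron was -0.95 (adjusted p = 0.0077), and mutant less wildtype degron was 0.60 (adjusted p = 0.015). Knockout and wildtype degron, neighbours in that order, differed by -0.35 (95% interval -0.72 to 0.03; adjusted p = 0.11). The knockout call was lost without the parental library with Shld (0.40, adjusted p = 0.078) or the knockout library without it (0.54, adjusted p = 0.061). Leaving out the mutant degron library with Shld ended both the difference from the knockout line (-0.88, adjusted p = 0.072) and that from the wildtype degron line (0.53, adjusted p = 0.089), and the latter also ended without the wildtype degron library with Shld (0.49, adjusted p = 0.095).

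PLAU, urokinase, was near 0 in every library. It stood at 0.299 and 0.202 with and without Shld in parental cells, 0.0385 and listed at 0 in the knockout line, 0.314 and 0.496 in the mutant degron line, and 0.347 and 0.126 in the wildtype degron line. It entered no test. PLAT was the higher of the 2 activators in all 8 libraries.

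SERPINE2 differed mainly between the wildtype degron line and the 2 lines with a change at the mutant allele. It stood at 167 and 218 with and without Shld in parental cells, 212 and 382 in the knockout line, 373 and 318 in the mutant degron line, and 133 and 187 in the wildtype degron line. Parental values overlapped those of the knockout and wildtype degron lines, and the mutant degron pair lay above the parental and wildtype degron pairs. Mutant less wildtype degron was 1.12 (limma, adjusted p = 0.0084), and knockout less wildtype degron was 0.85 (adjusted p = 0.027). Against parental cells the mutant degron line was 0.85 ± 0.27 higher (adjusted p = 0.047), the knockout line 0.58 (95% interval -0.03 to 1.18; adjusted p = 0.12) and the wildtype degron line -0.27 (-0.88 to 0.34). The mutant degron call against parental cells was lost when any of the 4 libraries compared was left out (0.66 to 1.04, adjusted p from 0.067 to 0.24). That against the wildtype degron line was lost without the mutant degron (1.00, adjusted p = 0.055) or wildtype degron library with Shld (0.87, adjusted p = 0.059). The knockout call against it was lost without the knockout library without Shld (0.43, adjusted p = 0.13) or the wildtype degron library with it (0.60, adjusted p = 0.16).

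Counted between engineered lines, the knockout line had 1 gene higher (MMP2) and 1 lower (PLAT) than the mutant degron line, where 6.11% and 6.50% of all genes tested were. Against the wildtype degron line it had 2 higher (MMP2, SERPINE2) and 3 lower (MMP15, TIMP1, TIMP2), beside 24.5% and 25.4% of all genes. The mutant degron line had 3 higher (MMP2, PLAT, SERPINE2) and 2 lower (MMP15, TIMP1) than the wildtype degron line, beside 24.0% and 26.8% of all genes. In the latter pair of comparisons the wildtype degron libraries are shared. MMP15 calls in both ended without the wildtype degron library without Shld (-0.33, adjusted p = 0.16, against the knockout line and -0.46, adjusted p = 0.066, against the mutant degron line). They also ended without the knockout library with Shld (-0.31, adjusted p = 0.12) and the mutant degron library without Shld (-0.53, adjusted p = 0.054). The TIMP1 calls ended when any of the 4 libraries of the wildtype and mutant degron lines was left out, and the call against the knockout line also without the knockout library with Shld (adjusted p from 0.060 to 0.20 over these).

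Ratios within a library put enzyme and inhibitor side by side and do not depend on how libraries were scaled. MMP14 per TIMP2 was 0.214 and 0.221 with and without Shld in parental cells, 0.410 and 0.464 in the knockout line, 0.295 and 0.313 in the mutant degron line, and 0.292 and 0.306 in the wildtype degron line. Parental cells were lowest and the knockout pair highest, with the degron lines overlapping in between. PLAT per SERPINE2 was 0.340 and 0.374 in parental cells, 0.468 and 0.304 in the knockout line, 0.587 and 0.625 in the mutant degron line, and 0.949 and 0.794 in the wildtype degron line. Here the wildtype degron pair was highest, and the knockout pair spanned the parental one. TIMP3 per TIMP2 was 0.0474 and 0.0432 in parental cells, 0.0745 and 0.0849 in the knockout line, 0.0859 and 0.0710 in the mutant degron line, and 0.0417 and 0.0494 in the wildtype degron line, so that the knockout and mutant degron lines lay above the other 2. These ratios are transcript levels only and were not tested.

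**Figure D3:**
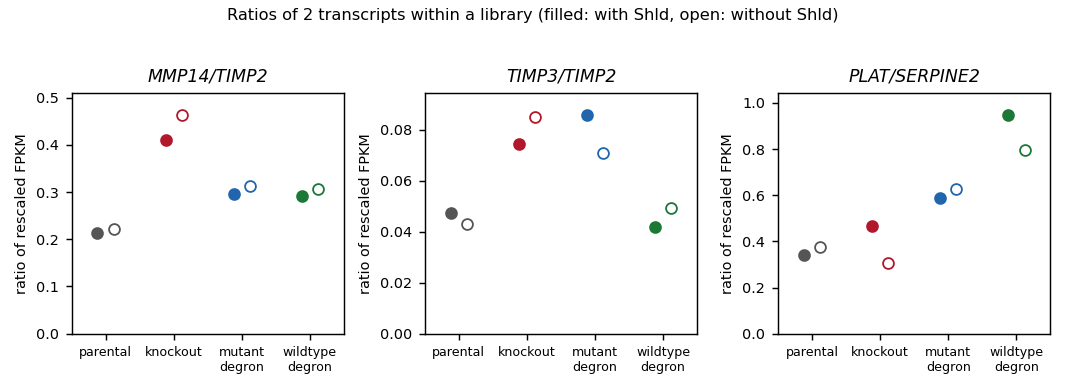
Ratio of rescaled FPKM of 2 transcripts within each library, filled points with Shld and open points without (axes from 0). MMP14 per TIMP2 is 0.214 and 0.221 in parental cells and 0.410 and 0.464 in the knockout line.

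Shld withdrawal moved no gene of the set past the threshold in any of the 3 engineered lines. The test took its spread from the parental pair, which carries no destabilising domain by its label, and assumed each lone library to vary like that pair (limma, 1 residual degree of freedom). Over all genes, 0.513% were called in the knockout line, 0.0475% in the mutant degron line and 0.0475% in the wildtype degron line, so few calls of any kind were made. Before adjustment, 3 of the 8 were below 0.05 in the knockout line (SERPINE2, TIMP3 and MMP14), and none in the degron lines; of all 10526 genes, 1306 were in the knockout line, 225 in the mutant degron line and 449 in the wildtype degron line. Across 354 values of these changes and their differences under other settings, none of the set passed, and the lowest adjusted p was 0.052.

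All 8 tested genes were higher without Shld than with it in parental cells, by 0.27 to 0.51 on the log2 scale with a median of 0.39, where all genes had a median of 0.02 and quartiles of -0.12 and 0.13. That pair was not tested. In the knockout line all 8 were likewise above 0, from 0.22 to 0.84 (median 0.39), and in the wildtype degron line from 0.04 to 0.49 (median 0.17). In the mutant degron line 1 was above 0 (TIMP1, 0.12) and 7 below, from -0.37 to 0.12 (median -0.12). The parental pair is the spread of the test, and its 2 libraries differ in summed value and in ribosomal protein share, as given above; their part in these values was not tested.

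**Figure D4:**
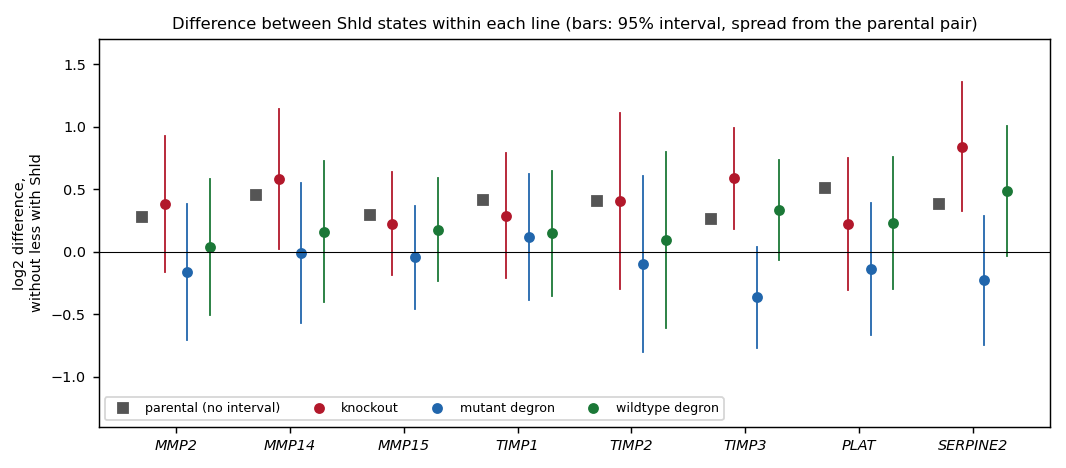
Difference without Shld less with Shld in log2(rescaled FPKM + 1) for the 8 tested genes in each of the 4 lines; bars are 95% intervals of the fit, and parental squares have none. All 8 lie above 0 in parental, knockout and wildtype degron cells, and 7 of 8 lie below 0 in the mutant degron line, with TIMP1 at 0.12. Quartiles over all genes were -0.12 and 0.13 in parental cells and -0.15 and 0.15 in the knockout line. They were -0.09 and 0.09 in the mutant degron line and -0.10 and 0.11 in the wildtype degron line. None of the 8 passed the threshold in an engineered line, and the parental pair was not tested.

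The widest value was SERPINE2 in the knockout line, 212 with and 382 without Shld, a difference of 0.84 ± 0.23 (95% interval 0.33 to 1.36; limma, adjusted p = 0.14). TIMP3 in that line was 52.2 and 78.9, a difference of 0.59 ± 0.18 (0.18 to 0.99; adjusted p = 0.19), and MMP14 287 and 431, a difference of 0.58 ± 0.25 (0.02 to 1.15; adjusted p = 0.38). In the mutant degron line TIMP3 was 91.5 with and 70.8 without Shld, a difference of -0.37 (-0.77 to 0.04; adjusted p = 1). Tested against each other, the knockout change less the mutant degron change was 0.95 for TIMP3 (95% interval 0.38 to 1.52; limma, adjusted p = 0.31) and 1.07 for SERPINE2 (0.34 to 1.80; adjusted p = 0.40). Neither passed, and 0.133% of all genes did. For the change in the knockout less that in the wildtype degron line, 0.0665% of all genes passed, and for mutant less wildtype degron 0.0475%, with none of the set in either.

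Around these genes, 7 lists of related proteases, inhibitors and associated proteins held 99 genes, of which 84 had a locus and 42 passed the filter. The F test over lines called 34 of them, beside 67.7% of all genes. Calls of single list genes were not rerun with a library left out or under the other settings. Most secreted enzymes of the family were near 0: MMP1, MMP3, MMP7, MMP8, MMP10, MMP12 and MMP13 reached at most 0.0593 in any library, and MMP9, gelatinase B, had a mean of 0.296. Of 5 other metalloproteinases tested, 2 were higher in the knockout line and 2 in the mutant degron line, with none lower, and 1 was higher and 1 lower in the wildtype degron line. In the same comparisons 17.9%, 11.5% and 21.0% of all genes tested were higher, and 20.7%, 13.9% and 21.4% were lower. MMP17, a glycolipid-anchored enzyme, had values with and without Shld of 54.1 and 55.6 in parental cells, 294 and 316 in the knockout line, 132 and 158 in the mutant degron line, and 59.7 and 71.1 in the wildtype degron line. As for MMP2, the knockout pair was highest and the mutant degron pair next. The differences from parental cells were 2.45 (limma, adjusted p = 2.3e-06), 1.38 (adjusted p = 9.8e-05) and 0.24 (adjusted p = 0.12). MMP16, MT3-MMP, was higher by 0.97 in the knockout and 1.04 in the mutant degron line, and MMP11, stromelysin-3, by 1.14 in the wildtype degron line.

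**Figure D5:**
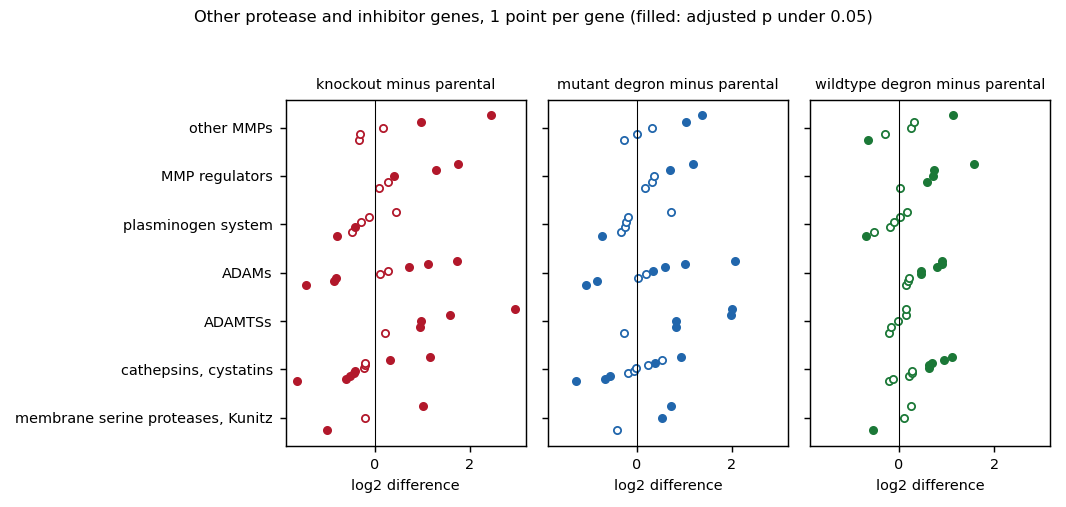
Difference of each engineered line from parental cells in log2(rescaled FPKM + 1) for the genes of 7 related lists, 1 point per gene, filled where adjusted p was under 0.05. In the knockout and mutant degron lines 4 of 5 tested ADAMTS genes are higher, and in the wildtype degron line none is. Over all genes tested, 17.9%, 11.5% and 21.0% are higher in the knockout, mutant degron and wildtype degron lines.

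Among regulators of these enzymes, 3 of 5 were higher in the knockout line, 2 in the mutant degron line and 4 in the wildtype degron line, and none was lower. Shares over all genes were 17.9%, 11.5% and 21.0% higher, and 20.7%, 13.9% and 21.4% lower. LRP1, the endocytic receptor that clears protease-inhibitor complexes, was higher by 1.75, 1.19 and 1.57. A2M, a bait-type inhibitor that traps proteases and is cleared by LRP1, was higher by 1.29, 0.71 and 0.71. BSG, an inducer of metalloproteinase expression, was higher by 0.40 in the knockout (limma, adjusted p = 0.041) and 0.74 in the wildtype degron line. Its lowest value, 516, was in the parental library with Shld, and these calls were not rerun without that library. FURIN, the convertase that activates membrane-type precursors, was higher by 0.59 in the wildtype degron line.

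In the plasminogen list no gene was higher, and 2, 1 and 1 of 6 were lower in the knockout, mutant degron and wildtype degron lines, near the 20.7%, 13.9% and 21.4% of all genes that were. SERPINI1, neuroserpin, an inhibitor of PLAT, fell by 0.80 in the knockout line and by 0.69 in the wildtype degron line relative to parental cells. S100A10, which with annexin A2 binds plasminogen and PLAT at the cell surface, fell by 0.73 in the mutant degron line. PLAUR, the urokinase receptor, stayed between 1.99 and 4.31, and plasminogen itself was listed at 0 in every library. The F test did not pass for PLAUR (limma, adjusted p = 0.099).

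ADAMs are a family of membrane proteins of which only some are sheddases. They moved in both directions: 3 higher and 3 lower of 8 in the knockout line, 4 and 2 in the mutant degron line, 5 and 0 in the wildtype degron line. Of all genes, 17.9%, 11.5% and 21.0% were higher in these lines and 20.7%, 13.9% and 21.4% lower. The same shares stand beside the ADAMTS counts below. ADAM12 fell by 1.45 in the knockout and by 1.07 in the mutant degron line but was 0.91 higher in the wildtype degron line. ADAM10, which sheds cadherins and Notch, fell by 0.81 in the knockout line and was 0.80 higher in the wildtype degron line. ADAM9 was higher in all 3, by 1.12, 1.01 and 0.90, and so was ADAM23, by 1.73, 2.055 and 0.46. Of 5 genes of the ADAMTS family of secreted proteases, 4 were higher in each of the knockout and mutant degron lines and none in the wildtype degron line. ADAMTS16 went from 0.0364 and 0.0448 in parental cells to 7.59 and 6.54 in the knockout line. Mutant degron cells had 2.90 and 3.41 of it, and it was 0.0103 and 0.0341 in the wildtype degron line. ADAMTS16 thus passed the filter of a mean of 1 only through the knockout and mutant degron lines, where it is counted as higher.

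Lysosomal cathepsins and their cystatin inhibitors gave 2 higher and 5 lower of 10 in the knockout line, 2 and 3 in the mutant degron line, and 5 and 0 in the wildtype degron line. Beside these, 17.9%, 11.5% and 21.0% of all genes were higher, and 20.7%, 13.9% and 21.4% were lower. Cathepsin L (listed as CTSL1) fell by 1.64 in the knockout and by 1.28 in the mutant degron line and was 0.64 higher in the wildtype degron line. CTSD, cathepsin D, was higher by 1.11 in the wildtype degron line. Of 3 genes tested in the list of membrane serine proteases and Kunitz inhibitors, 1 was higher and 1 lower in the knockout line. In the mutant degron line it was 2 and 0, and in the wildtype degron line 0 and 1, beside the same shares of all genes. HTRA1, a secreted serine protease, was higher by 1.01 and 0.72 in the knockout and mutant degron lines. TFPI was higher by 0.54 in the mutant degron line and fell by 0.55 in the wildtype degron line. HPN, hepsin, fell by 1.00 in the knockout line, where its values of 0.278 and 0.387 were below the filter mean of 1. No gene of the 7 lists passed the threshold for Shld withdrawal in any line.

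Pearson's r of log2(value + 1) over the 8 libraries, compared among 8602 genes with a mean of at least 5, is given as a description: the points are 4 lines in pairs, so that r mostly follows the line differences. The genes most like MMP2 were CBFB and FN1 (both 0.99), and CAND1 (0.99). FN1, fibronectin, stood at 37.1 and 47.6 in parental cells, 1140.0 and 1253 in the knockout line, 296 and 268 in the mutant degron line, and 38.3 and 47.9 in the wildtype degron line. For MMP14 they were SLC27A4, PTGFRN and ZDHHC5, for MMP15 SLC52A2, TNKS1BP1 and FZD7, and for TIMP1 ZDHHC24, XIAP and GPR108, with r from 0.97 to 0.99. For TIMP2 they included CD276 and TAP2. For TIMP3 they were ANTXR2, LRP12 and EPT1, for PLAT ADAM17 (0.99), P4HA1 and CALR, and for SERPINE2 ZBTB41, EMC7 and FAM126A. Within the set, the highest r were MMP14 with MMP15 and TIMP3 with PLAT (both 0.90) and TIMP1 with TIMP2 (0.86). MMP2 had an r of -0.36 with TIMP2 and -0.35 with TIMP1.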

How the data were processed

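RNA-seq of 8 libraries in 8 groups of 1 was analysed. The labels' protocols give TruSeq libraries and paired 100-base reads. TopHat, Cufflinks and the hg19 build are named in the submitters' processing notes; their versions, the annotation and any use of strand were not given in the sources used here. FPKM-type values for 32087 loci were deposited by the authors as a single table, rescaled so that the 75th percentile is 10 in each library; that FPKM was the input is inferred from Cufflinks and the values. Values are not counts, so depth is unknown. The low values imply 1.05 to 1.49 times as many fragments per unit as in parental cells with Shld.

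Columns were matched to samples by name. Named loci, without small RNAs, 1 locus per symbol (the highest mean) and a mean of at least 1, gave 10526 genes. Values were taken as log2(value + 1) and fitted in limma (version 3.58.1, under R 4.3.3), with 4 residual degrees of freedom for lines and 1 for withdrawal, adjusted by the Benjamini-Hochberg method over all genes at 0.05. The pseudocount understates changes of low genes. Text names the 9 genes, up to 4 genes per related list with the widest line differences among those past the F test, any list gene called on withdrawal, and the 3 genes most correlated with each of the 8; other genes were named after their values were seen, and 1 gene that the rule names is not reported here. The genes and lists were chosen with earlier results of these data known. Alternatives were the pseudocount, the filter, the scaling, Shld as a covariate, the source of the spread, summed loci and each library left out. Melanocyte, fibroblast, endothelial, leukocyte and epithelial markers were checked. Promoter windows are from RefSeq on GRCh38.p14, another build than the files', and were matched by symbol only.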

Additional observations from a re-analysis of the deposited data

How the results depend on the processing

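No pairing by replicate was possible because the groups compared share only 1 replicate number, with 1 library each. Lines can be matched by Shld state, and with Shld state as a covariate no line call of the set was lost and only the TIMP1 test over lines gained one (adjusted p = 0.0078). Over the single-gene results of the set, 1199 alternative values kept direction and side of the threshold, 64 lost the call, 17 gained one and 19 changed sign. Kept in every alternative run were the MMP2 calls in the knockout and mutant degron lines against parental cells, MMP14 in the knockout and wildtype degron lines, PLAT in both degron lines and MMP15 in the wildtype degron line; MMP2 has no value at a mean of at least 5. The calls lost when 1 library was left out stand beside their results; of the calls against parental cells, the lack of a filter also ended those of MMP15 and TIMP3 in the knockout line, MMP14 and SERPINE2 in the mutant degron line, and TIMP1 and TIMP3 in the wildtype degron line, and median scaling those of SERPINE2 (adjusted p = 0.052) and TIMP1 (adjusted p = 0.052). Between engineered lines the lack of a filter ended the calls of MMP15 (adjusted p = 0.063), TIMP1 (0.094) and SERPINE2 (0.085) for knockout less wildtype degron and of TIMP1 (0.079) for mutant less wildtype degron, and over lines those of TIMP2 (0.055) and SERPINE2 (0.074); median scaling ended TIMP1 for knockout less wildtype degron (adjusted p = 0.055). The TIMP1 test over lines passed under quantile normalization (adjusted p = 0.031), at a mean of at least 5 (0.047) and, barely, with a pseudocount of 5. The causes were not tested. SERPINE2 in the knockout line passed without the knockout library with Shld (1.00, adjusted p = 0.0075) and with the spread of the parental pair alone (adjusted p = 0.019).

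Signs changed only for values whose interval held 0. Under quantile normalization MMP2 in the wildtype degron line against parental cells was 0.071 and the PLAT withdrawal change in the knockout less wildtype degron line 0.0027; under median scaling the latter was 0.0038, TIMP2 in the knockout line -0.0092 and TIMP1 in the mutant degron line -0.0068. With 1 library left out, the knockout less parental range was -0.16 to 0.25 for TIMP1 and -0.19 to 0.22 for TIMP2, mutant degron less parental -0.19 to 0.22 for TIMP1, and wildtype degron less parental -0.27 to 0.0078 for MMP2. Knockout less mutant degron ranged from -0.69 to 0.15 for SERPINE2, -0.12 to 0.46 for MMP14 and -0.11 to 0.17 for TIMP1, and knockout less wildtype degron from -0.44 to 0.15 for MMP14 and -0.18 to 0.41 for TIMP3.

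Counts of all genes called, with 1 library left out, ran from 2541 to 4100 for knockout less parental (4070 with all libraries), 971 to 3298 for mutant degron less parental (2673), 2162 to 5058 for wildtype degron less parental (4462), 409 to 1832 for knockout less mutant degron (1327) and 3439 to 5863 for mutant less wildtype degron (5345). Withdrawal counts moved most: with no filter they were 0 for all 3 changes and all 3 differences; the cause was not tested. Against 54 in the knockout line they were 217 at a mean of at least 5, 24 under quantile normalization and 3 under median scaling. Against 5 in the mutant degron line they were 8 with a pseudocount of 0.1, 0 under median scaling and 0 with the spread of the parental and knockout pairs. Against 5 in the wildtype degron line they were 9 at a mean of at least 5, 3 under quantile normalization, 3 under median scaling and 2 with both pairs. For the knockout less mutant degron change (14) they were 22 with a pseudocount of 0.1, 36 at a mean of at least 5, 6 under quantile normalization and 5 under median scaling. For knockout less wildtype degron (7) they were 4 with a pseudocount of 5, 3 at a mean of at least 5, 4 under quantile normalization and 3 under median scaling. For mutant less wildtype degron (5) they were 18 at a mean of at least 5, 1 under quantile normalization, 1 under median scaling and 0 with both pairs. The withdrawal fit has no residual degrees of freedom once a parental library is left out.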

Other observations

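The table holds a second locus for TIMP2 and for SERPINE2, which the values above leave out. The second TIMP2 locus stood at 0.673 with and 2.80 without Shld in parental cells, 45.5 and 15.3 in the knockout line, 25.4 and 6.04 in the mutant degron line, and 1.83 and 2.68 in the wildtype degron line. The knockout and mutant degron libraries with Shld were the highest of the 8; they are also those with the most fragments per unit of value, 1.44 and 1.49 times that of parental cells with Shld, and the part of this in the values was not tested. The second SERPINE2 locus was listed at 0 in parental cells, in the knockout library without Shld and in the wildtype degron library with it, and stood at 1.28 in the knockout library with Shld, 1.24 and 1.92 in the mutant degron line and 1.83 in the wildtype degron library without Shld.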
